A study of Mus musculus with 36 samples.

Results

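Macrophages and other leukocytes populate the mammary gland from fetal life onward, and 36 genes that these cells use were followed here in the peri-ductal stroma and in the epithelium of the fetal mouse mammary gland. A member was any probe set annotated to exactly 1 of the 36 symbols, and where a symbol had several, the probe set with the highest mean over the 36 arrays stood for the gene. All 36 symbols were found, out of 18194 gene symbols with a probe set of their own on the array. The tissue came from the fourth inguinal gland of female C57BL/6 fetuses taken on embryonic day 19. Their dams, ERα(+/−) and mated with ERα(+/−) males, carried osmotic pumps from embryonic day 8 that delivered the DMSO vehicle, bisphenol A (BPA) at 250 ng/kg/d or ethinyl estradiol (EE2) at 10 ng/kg/d. BPA is a weakly estrogenic building block of polycarbonate plastics and epoxy resins, and EE2 a potent synthetic estrogen. Each litter gave a wild type, ERα(+/+), and an ERα knockout, ERα(−/−), fetus. The compartments were cut by laser from sections of the same gland, the ducts as epithelium and a narrow band around them as stroma, chosen by morphology. Which stroma and epithelium arrays belong to one gland is not stated: those of a genotype and exposure with the same replicate number were taken as one gland, and the gland counts given here rest on that inference. With 2 compartments, 2 genotypes and 3 exposures this made 12 groups of 3 arrays. A value is the deposited signal intensity of a probe set, in arbitrary units. Probes differ in how well they bind, so levels were compared between arrays for the same gene and never between genes.

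Tissue macrophages depend on CSF1R, the receptor for colony-stimulating factor 1 and interleukin 34, and on the transcription factor PU.1, the product of Spi1. They clear dying cells and debris, and C1q, the recognition molecule of the classical complement pathway, is made mainly by them. In the mammary gland, macrophages are known to take part in ductal outgrowth. Several of the 36 genes, such as Ptprc (CD45) and Coro1a, are used by all leukocytes, and Fcer1g, Laptm5 and Cd53 by mast cells or lymphocytes as well, so the set does not mark macrophages alone.

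Because the members include Spi1, the promoters of the others were searched for the purine-rich GAGGAA that PU.1 sites commonly contain, and for its longer form GAGGAAGT, which includes it, on both strands. RefSeq promoters on GRCm38.p6 were searched for 28 of the 36 members, 35 promoters in all, over the 250 bases before the start. No promoter was searched for Csf1r, C1qa, Tyrobp, Adgre1, Cd14, Itgb2, Spi1 and Cd52. Promoters on 1 chromosome were left out, also from the set of all promoters. GAGGAA or its reverse complement TTCCTC was present in 16 of the 35 (45.7%), against 23.3% of all 32851 promoters searched. GAGGAAGT was present in 3 of the 35 (8.57%), those of C1qc, Cd37 and Pf4, against 2.44% of all. The promoters of 1 gene can overlap, as those of Fcgr3 do, and a match of letters is not a bound site. Shown are the 100 bases before the start of the 7 members that were higher in the stroma and had a match there, read on the gene's own strand, with the match in capitals; the intervals in the same order are chr4:136886201-136886300 (minus strand), chr3:106790150-106790249 (minus), chr13:37050245-37050344 (minus), chr1:171059395-171059494 (minus), chr4:130913216-130913315 (plus), chr2:14229314-14229413 (plus) and chr5:90772335-90772434 (plus).
C1qb: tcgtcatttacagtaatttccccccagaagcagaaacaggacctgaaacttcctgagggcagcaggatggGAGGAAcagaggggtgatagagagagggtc
Cd53: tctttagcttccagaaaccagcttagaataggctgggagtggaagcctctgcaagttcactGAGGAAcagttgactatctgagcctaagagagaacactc
F13a1: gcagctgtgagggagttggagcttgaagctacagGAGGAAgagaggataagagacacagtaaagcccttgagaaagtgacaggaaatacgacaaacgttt
Fcgr3: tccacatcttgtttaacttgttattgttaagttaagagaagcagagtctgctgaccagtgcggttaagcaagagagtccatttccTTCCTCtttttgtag
Laptm5: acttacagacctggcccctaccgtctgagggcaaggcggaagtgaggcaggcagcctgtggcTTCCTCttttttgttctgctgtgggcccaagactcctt
Mrc1: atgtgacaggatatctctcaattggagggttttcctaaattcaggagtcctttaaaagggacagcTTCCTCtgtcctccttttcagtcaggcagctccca
Pf4: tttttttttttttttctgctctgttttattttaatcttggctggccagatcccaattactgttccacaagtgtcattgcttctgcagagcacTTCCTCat

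The arrays differed in overall brightness, with a median signal over all probe sets between 10.9 and 66.8. The 3 dimmest were the ERα(+/+) vehicle epithelium replicate 2 (10.9), the ERα(+/+) vehicle stroma replicate 2 (12) and the ERα(+/+) BPA stroma replicate 3 (14.6). The captured compartments bore out their labels: the 15 epithelium markers measured summed to 13140 to 25360 on the epithelium arrays and to 625.9 to 8348 on the stroma arrays, and the 14 fibroblast markers to 11490 to 42470 and to 41000 to 66600. All 18 epithelium arrays carried fibroblast signal. Esr1, the gene of ERα, ran from 20.3 to 396.7 in ERα(+/+) stroma (median 114.5) and from 13.9 to 81.8 in ERα(−/−) stroma (median 37.6), and from 1.1 to 142 and from 1.6 to 100.2 in the epithelium. The genotypes thus overlapped in both compartments, and whether the probes lie in the part of the gene that the knockout removes is not given in the sources used here.

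Within a gland, the macrophage and leukocyte genes had more signal in the stroma than the epithelium. Of the 36 members, 27 were higher in the stroma and 0 lower at an adjusted p under 0.05 in limma's test with the gland as a block (18 glands), where 6.36% of all genes were called higher and 17.7% lower. The median difference was 1.87 on the log2 scale, against −0.30 over all genes, and 34 of the 36 differences were positive. At an unadjusted p under 0.05, 32 members were higher and 0 lower, where 9.12% of all genes were higher and 27.6% lower. Without the gland as a block, 25 members were higher and 0 lower at the adjusted threshold, a fit for which the share of all genes is not given. In tissue that was not sorted, fewer cells of a type and less RNA per cell cannot be told apart, and this holds for every difference given here. On the stroma arrays, 28 to 32 of the 36 members lay above the array's own median, and on the epithelium arrays 14 to 26. That median is over all probe sets, whereas a member is the brightest probe set of its gene. The share of all genes above it is not given, so these counts are not shown to be particular to the members.

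**Figure D1:**
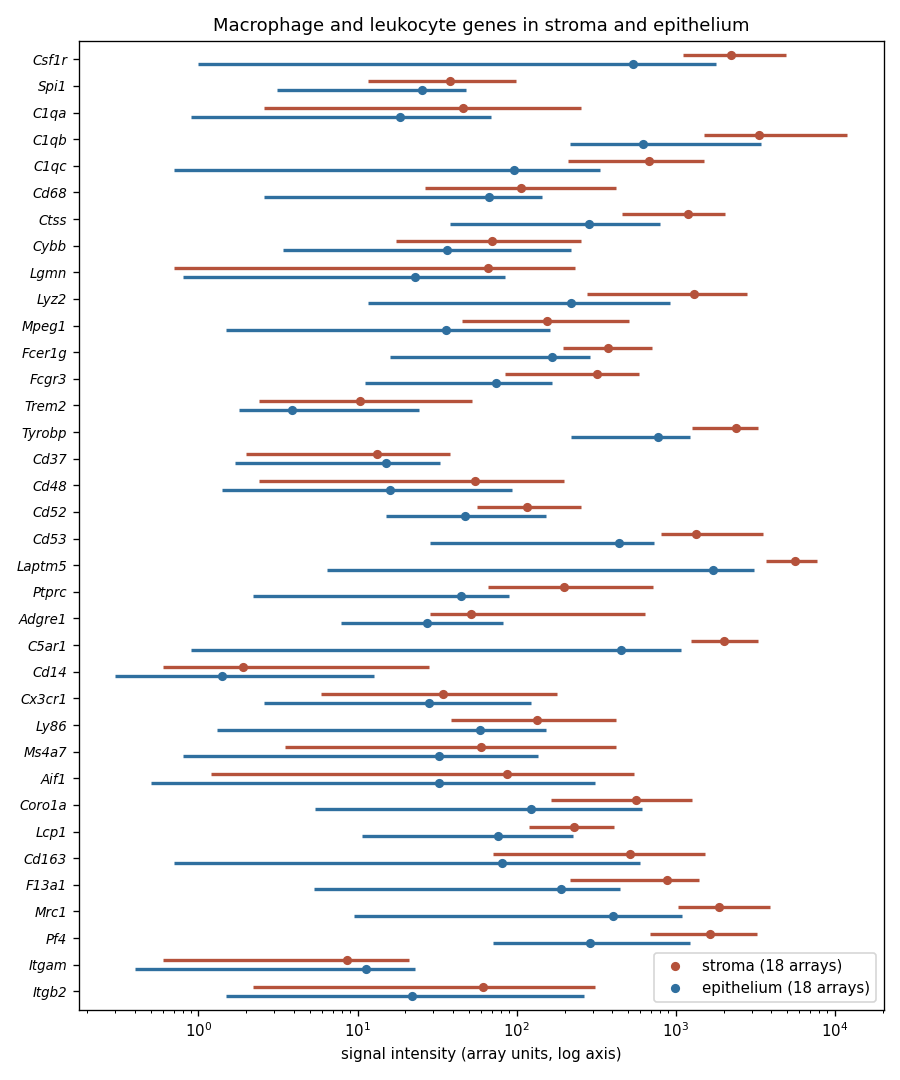
Signal intensity (array units, log axis) of the 36 genes in the stroma (18 arrays, red) and the epithelium (18 arrays, blue), ordered by role. Points are medians and lines run from the lowest to the highest array; for Laptm5, Tyrobp, C5ar1 and Cd53 the ranges do not overlap, and for Cd37 and Itgam the epithelium median is the higher.

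The receptor and the regulator on which the lineage depends were both higher in the stroma. Csf1r had a median signal of 2215 in the stroma (1104.4 to 4959.1) and of 541.3 in the epithelium (1 to 1793.1). It was higher in the stroma of 18 of 18 glands, by 2.87 on the log2 scale (SE 0.53, adjusted p = 0.000627 in limma). The other, dimmer probe sets of Csf1r were also called, with smaller differences of 1.51 (SE 0.33) and 0.79 (SE 0.22). Spi1 ran from 11.7 to 98.4 in the stroma, with a median of 38.3, and from 3.1 to 48.3 in the epithelium, with a median of 25.5. Its difference was smaller, 0.95 (SE 0.28, adjusted p = 0.018), and 13 of 18 glands showed it.

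The 3 chains of C1q were all higher in the stroma, with a median difference of 2.56. C1qc had the largest difference of the 36 members: its signal ran from 209.4 to 1513.2 in the stroma (median 675.3) and from 0.7 to 333.6 in the epithelium (median 96.9), a log2 difference of 3.55 (SE 0.65, adjusted p = 0.000643). C1qb ran from 1498 to 11975.3 in the stroma (median 3325) and from 217 to 3449.5 in the epithelium (median 623.4). Its difference was 2.56 (SE 0.27, adjusted p = 1.11e-06), and 18 of 18 glands showed it. For C1qa the medians were 45.9 and 18.6 and the difference 1.38 (SE 0.38, adjusted p = 0.013), with 14 of 18 glands higher in the stroma.

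Of the 4 resident-macrophage scavenger receptors and secreted proteins, all 4 were higher in the stroma, with a median difference of 2.65. Mrc1, the mannose receptor, ran from 1035 to 3911 in the stroma (median 1883) and from 9.5 to 1103.2 in the epithelium (median 400.8), a difference of 2.91 (SE 0.43, adjusted p = 6.72e-05). Cd163, the scavenger receptor for haemoglobin bound to haptoglobin, ran from 71.1 to 1524.2 (median 514.5) and from 0.7 to 596.7 (median 80.5). Its difference was 2.75 (SE 0.55, adjusted p = 0.00126). F13a1, the coagulation factor XIII A chain that resident macrophages express, differed by 2.56 (SE 0.40), with medians of 877.4 and 189.8. Pf4, a chemokine of platelets and of some macrophages, differed by 2.48 (SE 0.28), with medians of 1640 and 290.2. F13a1, Mrc1 and Pf4 were higher in the stroma of 18 of 18 glands, and Cd163 of 16.

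Among the adaptors and Fc receptors, 3 of 4 were higher in the stroma. Tyrobp, the DAP12 adaptor through which activating receptors signal, had no overlap between the compartments. It ran from 1266.8 to 3296 in the stroma (median 2387) and from 220.5 to 1224.3 in the epithelium (median 779.2), a difference of 1.81 (SE 0.20, adjusted p = 2.63e-06). Fcgr3, a low-affinity receptor for IgG, had the smallest adjusted p of the members: its medians were 320.2 and 73.9, the difference 2.18 (SE 0.22, adjusted p = 8.04e-07), and 18 of 18 glands showed it. Fcer1g, the common Fc receptor gamma chain, differed by 1.34 (SE 0.29), with medians of 372.7 and 167.1. Trem2, a lipid-sensing receptor that pairs with DAP12, was dim, with a median of 10.3 in the stroma (2.4 to 52.5) and of 3.9 in the epithelium (1.8 to 24.3). Its difference of 1.08 (SE 0.41) had an adjusted p of 0.065 in limma.

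Of the 6 other surface proteins of macrophages, 3 were higher in the stroma. C5ar1, the receptor for the complement fragment C5a, did not overlap between compartments, at 1240.4 to 3314.8 in the stroma (median 2003) against 0.9 to 1079.6 in the epithelium (median 450.1). The difference was 2.86 (SE 0.47, adjusted p = 0.000241). Ly86, the MD-1 partner of RP105, differed by 2.20 (SE 0.51), and Adgre1, the F4/80 antigen, by 1.33 (SE 0.37), with medians of 51.4 and 27.2. Adgre1 at 645 on the ERα(+/+) vehicle stroma replicate 2 lay far above the 28.7 to 140.5 of the other stroma arrays. Ms4a7, a membrane protein of the CD20 family, missed the threshold at 1.21 (SE 0.44, adjusted p = 0.0534). Cx3cr1, the fractalkine receptor, had medians of 34.4 and 28.1, a difference of 0.55 (SE 0.43, adjusted p = 0.389). Cd14, the coreceptor for bacterial lipopolysaccharide, was dim, with a median of 1.9 in the stroma (0.6 to 28) and of 1.4 in the epithelium (0.3 to 12.6), and an adjusted p of 0.153.

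Lysosome and phagocyte effectors were higher in the stroma for 4 of 6. Ctss, the lysosomal protease cathepsin S, ran from 460.8 to 2056.4 in the stroma (median 1203) and from 37.9 to 797.6 in the epithelium (median 285.8), a difference of 2.04 (SE 0.26, adjusted p = 1.27e-05). Lyz2, lysozyme, differed by 2.47 (SE 0.30) and Mpeg1, perforin-2, by 2.35 (SE 0.39). Lgmn, the lysosomal protease legumain, had medians of 66.3 and 22.9 and differed by 1.85 (SE 0.42, adjusted p = 0.00376). Cd68, a lysosomal glycoprotein often used to stain macrophages, and Cybb, the catalytic subunit of the phagocyte NADPH oxidase, did not pass. Their differences were 0.98 (SE 0.42, adjusted p = 0.104) and 1.03 (SE 0.40, adjusted p = 0.0735), and each was higher in the stroma of 14 of 18 glands.

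Of the 6 pan-leukocyte membrane proteins, 5 were higher in the stroma. Laptm5, a lysosomal protein of haematopoietic cells, ran from 3710.5 to 7698.5 in the stroma (median 5586) and from 6.4 to 3099.8 in the epithelium (median 1726), without overlap, a difference of 2.12 (SE 0.47, adjusted p = 0.00315). The other probe sets of Laptm5 were far dimmer, with stroma medians of 5.3 to 70.2. Their differences were smaller, from −0.24 to 1.20, and not all of them were called. Ptprc, the CD45 phosphatase, ran from 66.1 to 723.5 (median 198.3) and from 2.2 to 89.3 (median 45), a difference of 2.63 (SE 0.41, adjusted p = 0.000125). The tetraspanin Cd53 differed by 2.03 (SE 0.31), Cd48, a ligand of 2B4, by 1.69 (SE 0.50) and Cd52, a small glycoprotein, by 1.38 (SE 0.30). The tetraspanin Cd37 had medians of 13.2 and 15.2, a difference of −0.06 (SE 0.39, adjusted p = 0.941), but the mean of its 2 probe sets differed by 1.06 (adjusted p = 0.00409 in limma). Among the actin-binding proteins of leukocytes, Coro1a, coronin 1A, differed by 2.56 (SE 0.38) and Lcp1, L-plastin, by 1.67 (SE 0.27). Aif1 (IBA1) had medians of 86.6 and 32.6 and the widest error, at 1.88 (SE 0.79, adjusted p = 0.095). Of the β2 integrin pair, Itgb2, the common CD18 chain, differed by 1.44 (SE 0.37, adjusted p = 0.00816), while Itgam, the CD11b chain, had medians of 8.6 and 11.3 and a difference of −0.08 (SE 0.49, adjusted p = 0.932). The directions of Cd37 and Itgam turned under other scalings.

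**Figure D2:**
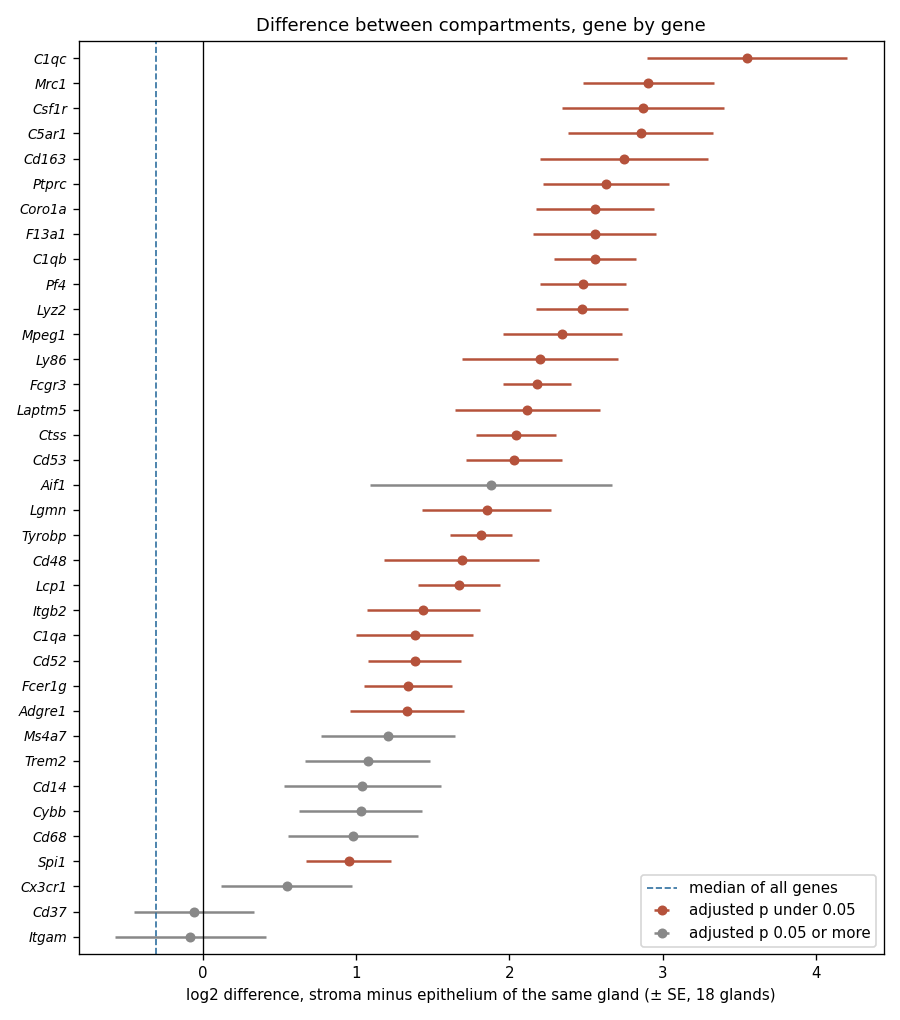
Log2 difference in signal between the stroma and the epithelium of the same gland for each of the 36 genes (points, with SE bars, 18 glands), red where the adjusted p was under 0.05. The 27 red genes lie to the right of 0, and the dashed line marks the median over all genes at −0.30.

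The 36 genes had 20 further probe sets, of which 17 had a positive difference, 10 were called higher in the stroma and 0 lower. In 15 of the 36 members all 18 glands were higher in the stroma. Each epithelium array fell below every stroma array for 9 to 28 of the members. The count was 28 on the ERα(+/+) vehicle epithelium replicate 2, the dimmest array, and 9 on the ERα(−/−) BPA epithelium replicate 3, which had the highest array median, 66.8. Signals were not scaled for brightness in these counts. Neither they, nor the 15 members, nor the 4 members without overlap were set against all genes, so they are not shown to be particular to the members. Members varied more among the epithelium arrays than among the stroma arrays: the SD over 18 arrays was larger in the epithelium for 31 of 36, with a median SD of 1.53 against 0.85 on the log2 scale, while 39.6% of all genes had the larger SD there.

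**Figure D3:**
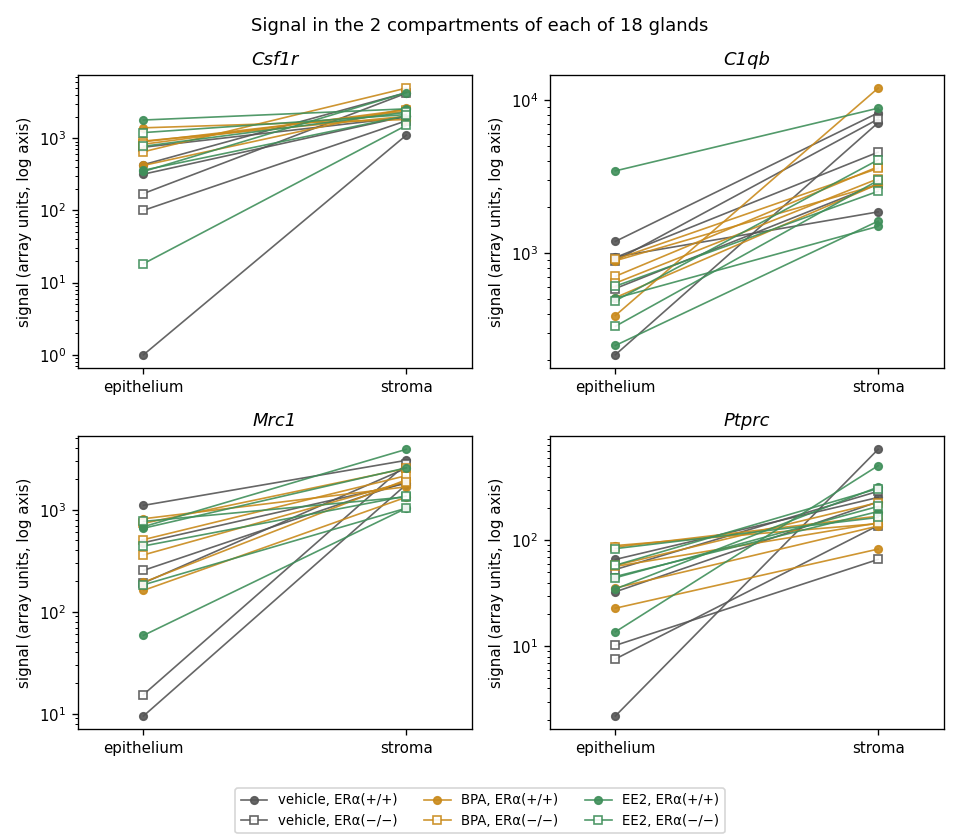
Signal (array units, log axis) of Csf1r, C1qb, Mrc1 and Ptprc in the epithelium and the stroma of each of 18 glands, 1 line a gland, coloured by exposure, with filled circles for ERα(+/+) and open squares for ERα(−/−). All lines rise from epithelium to stroma, and the epithelium points are spread more widely, with Csf1r from 1 to 1793.1.

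Other genes of the macrophage pathways were read from lists compiled for this purpose. Of 12 ligands and chemokines that act on macrophages, 4 were higher in the stroma and 0 lower. They were Ccl12 (2.74, SE 0.62), Cxcl12 (2.64, SE 0.32), the monocyte chemokine Ccl2 (2.44, SE 0.32) and Csf1, the main ligand of CSF1R (1.97). Il34, the other ligand, stood at −0.84 (adjusted p = 0.109), and Cx3cl1, the ligand of CX3CR1, at −1.49 (adjusted p = 0.156). Of 9 complement genes outside C1q, 4 were higher, among them Cd55 (2.75, SE 0.42), an inhibitor of complement on cell surfaces, the C3a receptor C3ar1 (2.29, SE 0.52) and Serping1 (1.89, SE 0.30), the C1 inhibitor. Of 5 further Fc receptors, 3 were higher, led by Fcer1a (2.70), the IgE receptor chain of mast cells, and the inhibitory IgG receptor Fcgr2b (2.44). Of 11 genes of signalling through immunoreceptor tyrosine motifs, 1 was higher, Sirpa (1.56, SE 0.28), the CD47 receptor.

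Tissue macrophage and scavenger genes outside the members were higher in the stroma for 12 of 20, with Lyve1 (2.87, SE 0.40), Clec10a (2.69, SE 0.57) and Stab1 (2.52, SE 0.41) in front. Marco stood at −0.59 (adjusted p = 0.207). Of 12 monocyte and dendritic cell genes, 5 were higher, among them Cd74 (1.63), Ccr2 (1.58) and H2-Eb1 (1.55). Among 10 myeloid transcription regulators the direction was split: 4 were higher in the stroma, led by Maf (1.95, SE 0.31) and Cebpa (1.44, SE 0.32), and 4 lower, led by Runx1 (−3.25, SE 0.19) and Myb (−2.47, SE 0.23), with Cebpb (−0.97) and Irf5 (−0.92). Runx1 and Cebpb are known to act in mammary epithelial cells too.

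Markers of other leukocytes differed in how far they followed the compartment. Of 11 mast cell markers, 10 were higher in the stroma (median 2.47), among them Hdc, the histamine-forming enzyme (2.91, SE 0.57), and Cpa3, carboxypeptidase A3 (2.66, SE 0.39). Their summed signal was 4840 to 12220 in the stroma and 144 to 6042 in the epithelium, and no marker of the list was at 0 on any array. Of 11 neutrophil markers, 3 were higher, S100a8 (2.54), Camp (1.75) and S100a9 (1.54), with sums of 267.7 to 1642 and of 60.6 to 955.6. Of 15 markers of T, B and NK cells, 3 were higher and 1 lower, with a median difference near 0 (−0.0028). Their sums were 125.4 to 1192 in the stroma and 341.4 to 1807 in the epithelium. The brightest probe sets weigh most in such a sum. The sums therefore do not show these markers as a class to be higher in the epithelium. Of markers of other cell types, 14 of 14 fibroblast, 12 of 12 endothelial and 9 of 9 adipocyte markers were higher in the stroma, with medians of 1.70, 1.94 and 1.78, against 1.87 for the members. Of 12 skeletal muscle markers 1 was higher, Des (1.66), of 5 erythroid markers 2, Alas2 (1.83) and Slc4a1 (1.39), and of 10 markers of keratinised epidermis 1, with 0 lower in each list. The part of mast cells and of stromal cells in the members' signal was not tested.

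The compartment difference was then read within each exposure and genotype (limma, 6 or 9 glands). In the glands of vehicle fetuses 19 members were higher in the stroma (2.68% of all genes), with a median difference of 2.62. In the BPA glands 4 were higher (0.192% of all genes), C1qb, Pf4, Tyrobp and Fcgr3, with a median of 1.42, and in the EE2 glands 9 (0.791%), with a median of 1.59. All 4 genes called in the BPA glands were also called in the vehicle and EE2 glands. The BPA count was 10 after quantile normalization, with a median of 2.00, and 10 without the ERα(+/+) vehicle gland 2. It was 1 without the ERα(+/+) BPA gland 2 or 3 or the ERα(−/−) BPA gland 1 or 2, and 2 without the ERα(−/−) BPA gland 3. The EE2 count was 14 without the ERα(+/+) vehicle gland 2, 3 without the ERα(+/+) EE2 gland 1 or 3, and 4, 1 and 2 without the ERα(−/−) EE2 glands 1, 2 and 3. Without the 3 dimmest arrays the vehicle, BPA and EE2 counts were 13, 2 and 14. In ERα(+/+) glands 21 members were higher (3.73% of all genes), median 2.20, and in ERα(−/−) glands 13 (1.74%), median 1.64, or 21 after quantile normalization. For the alternative fits in this paragraph the share of all genes is not given.

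Whether the compartment difference itself differed between exposures or genotypes was tested as an interaction. In limma 0 members passed after adjustment, and 0% of all genes did in each test. For BPA against vehicle the change in the stroma minus that in the epithelium had a median of −1.23 over the members and of −0.46 over all genes. At an unadjusted p under 0.05, 7 members were lower (6.23% of all genes), led by Lcp1 (−1.77, SE 0.59, adjusted p = 0.549) and Itgam (−2.91, SE 1.08, adjusted p = 0.586). That count was 2 after quantile normalization, and also 2 without the ERα(+/+) vehicle gland 2, the ERα(+/+) BPA gland 1 or the ERα(−/−) BPA gland 3, and 14 and 13 without the ERα(+/+) vehicle glands 1 and 3. For EE2 the median was −1.08 against −0.33, with 2 members lower at the unadjusted threshold (5.46% of all genes), Cd53 (−1.80) and F13a1 (−1.97). After quantile normalization and after centring that count was 0, with medians of −0.64 and −0.57. For ERα(−/−) against ERα(+/+) the median was −0.50 against −0.19, with 3 members lower (3.57%), Mpeg1 (−1.83, SE 0.63, adjusted p = 0.839), Cd14 and Aif1. For the alternative fits of these interactions the share of all genes is not given.

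The mean of the 36 genes on an array, as log2 signal minus the log2 of the array's median, was taken array by array. It lay between 2.31 and 3.52 on the 18 stroma arrays and between −0.71 and 1.21 on the 18 epithelium arrays, so the compartments did not overlap. Within the epithelium it was 0.22 ± 0.64 (SD, n = 6) in vehicle, 0.75 ± 0.48 (SD, n = 6) in BPA and 0.81 ± 0.36 (SD, n = 6) in EE2. The ranges overlapped, at −0.71 to 0.98, 0.12 to 1.21 and 0.16 to 1.13 in that order, and the differences between these means were not tested. The lowest arrays were all from vehicle fetuses, the ERα(+/+) replicate 2 (−0.71) and the ERα(−/−) replicates 2 (−0.13) and 3 (0.02). Within the stroma it was 2.79 ± 0.42 (SD, n = 6), 2.74 ± 0.25 (SD, n = 6) and 2.95 ± 0.27 (SD, n = 6) in the same order.

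**Figure D4:**
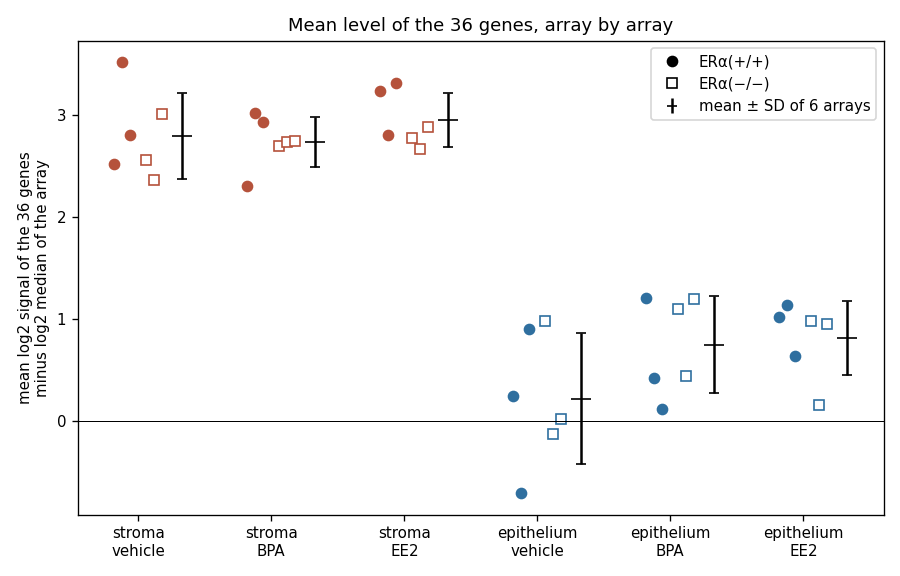
Mean log2 signal of the 36 genes minus the log2 median of the array, 1 point an array, by compartment and exposure, with filled circles for ERα(+/+), open squares for ERα(−/−) and bars for the mean ± SD of 6 arrays. The stroma arrays lie at 2.31 to 3.52 and the epithelium arrays at −0.71 to 1.21, and the vehicle epithelium spreads most.

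How this mean went with the marker levels of other cell types is given as a description. All values of an array share its library and its brightness. The marker levels were likewise means of log2 signal minus the log2 of the array's median. The array median was thus subtracted on both sides, and it also enters the r with the array median. What that adds to these values was not tested. Across the 18 epithelium arrays Pearson's r was 0.90 with the mast cell markers, 0.69 with the endothelial markers, 0.45 with the fibroblast markers, −0.32 with the T, B and NK cell markers, −0.71 with the epithelium markers and 0.54 with the array median. Across the 18 stroma arrays it was 0.74 with the fibroblast markers, 0.40 with the epithelium markers, 0.31 with the T, B and NK cell markers, 0.27 with the mast cell markers, 0.18 with the endothelial markers and −0.60 with the array median. The 3'/5' signal ratio of the Gapdh control probes, a measure of how intact the labelled RNA was, had an r of −0.20 in the epithelium and −0.34 in the stroma.

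In the epithelium, most members read higher after BPA than after vehicle, as most genes of the array did, and 0 members passed the threshold. No gene at all was called at an adjusted p under 0.05 in limma (0%). At an unadjusted p under 0.05, 10 members were higher and 0 lower, where 15.5% of all genes were higher and 15.8% were called in either direction. The median difference was 1.28 for the members and 0.61 for all genes. Aif1 had the largest difference, 4.71 (SE 1.09, adjusted p = 0.148). Its signal ran from 0.5 to 62.5 in vehicle epithelium (median 1.9) and from 12.6 to 228.8 in BPA epithelium (median 92.3), and the groups overlapped through the ERα(−/−) vehicle replicate 2, at 62.5, and the ERα(+/+) BPA replicate 3, at 12.6. Of the 6 vehicle values, 5 were 3.7 or lower, and on the log2(value + 16) scale the difference was 2.09. Itgam ran from 0.4 to 14.2 (median 2.7) and from 7.2 to 18.8 (median 12.7), a difference of 2.17 (SE 0.62, adjusted p = 0.179). It was dim on all these arrays, and on the log2(value + 16) scale the difference was 0.45. Lcp1 ran from 10.6 to 107.3 and from 73.3 to 227.4, a difference of 2.19 (SE 0.65, adjusted p = 0.186). The others at the unadjusted threshold were Ms4a7, Fcgr3, Lgmn, Ptprc, F13a1, Ly86 and Csf1r, at 1.31 to 2.86. C1qb (−0.12) and Pf4, both called between the compartments, were among the 3 members below 0.

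In the fits that follow, for which the share of all genes is not given, the BPA count at the unadjusted threshold changed with single arrays. It was 5 without the ERα(+/+) vehicle epithelium replicate 2, where the members' median was 0.68 against 0.45 for all probe sets, and also 5 without either of the ERα(+/+) BPA replicates 1 and 2 or any of the 3 ERα(−/−) BPA replicates. It was 6 without the ERα(−/−) vehicle replicate 3, 16 without the ERα(+/+) vehicle replicate 1 and 18 without the ERα(+/+) vehicle replicate 3. After quantile normalization it was 2, with a median of 0.54 against −0.01. Among markers of the other stromal cell types, 0 passed adjustment. The median difference was 2.35 for 12 endothelial, 1.71 for 11 mast cell, 1.53 for 9 adipocyte and 0.81 for 14 fibroblast markers, with 6, 4, 0 and 2 of them higher at the unadjusted threshold, against 0.61 and 15.5% for all genes. The summed fibroblast signal was 11490 to 42470 in vehicle and 19860 to 41370 in BPA epithelium, the endothelial sum 103.1 to 4115 and 545.3 to 5490, and the mast cell sum 144 to 4558 and 1094 to 4322. Their part in the members' values was not tested.

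For EE2 in the epithelium, 0 members and 0% of all genes were called after adjustment, and 4 members higher at the unadjusted threshold, where 7.37% of all genes were higher and 8.05% were called in either direction. The median difference was 1.11 against 0.35 over all genes. After quantile normalization it was 0.59, with 2 members at the unadjusted threshold. The share of all genes is not given for that fit or for those later in this paragraph that leave out an array. Itgam ran from 7.4 to 23.1 in EE2 epithelium, a difference from vehicle of 2.23 (SE 0.62, adjusted p = 0.438), and Aif1 from 0.8 to 309, a difference of 3.38 (SE 1.09, adjusted p = 0.46). On the log2(value + 16) scale these were 0.49 and 1.47. Mpeg1 (2.16) and Lgmn (2.63) were the other members at the unadjusted threshold. The count was 2 without the ERα(+/+) vehicle epithelium replicate 2 or the ERα(−/−) EE2 replicate 1, 7 without the ERα(−/−) EE2 replicate 2, and 8 and 10 without the ERα(+/+) vehicle replicates 1 and 3. The median difference of the marker lists was 1.48 (endothelial), 1.36 (mast cell), 1.00 (adipocyte) and 0.49 (fibroblast), with 0, 2, 0 and 1 markers higher at the unadjusted threshold and 0 after adjustment. Their part in the members' values was not tested. Both exposures were set against the same 6 vehicle arrays. BPA against EE2, which shares no vehicle array, gave 0 members at either threshold (0% of all genes adjusted, 3.59% unadjusted). The members with the smallest p were Lcp1 (1.29, SE 0.65) and Ms4a7 (1.53, SE 0.89), each with an adjusted p of 1. The doses of BPA and EE2 differed.

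**Figure D5:**
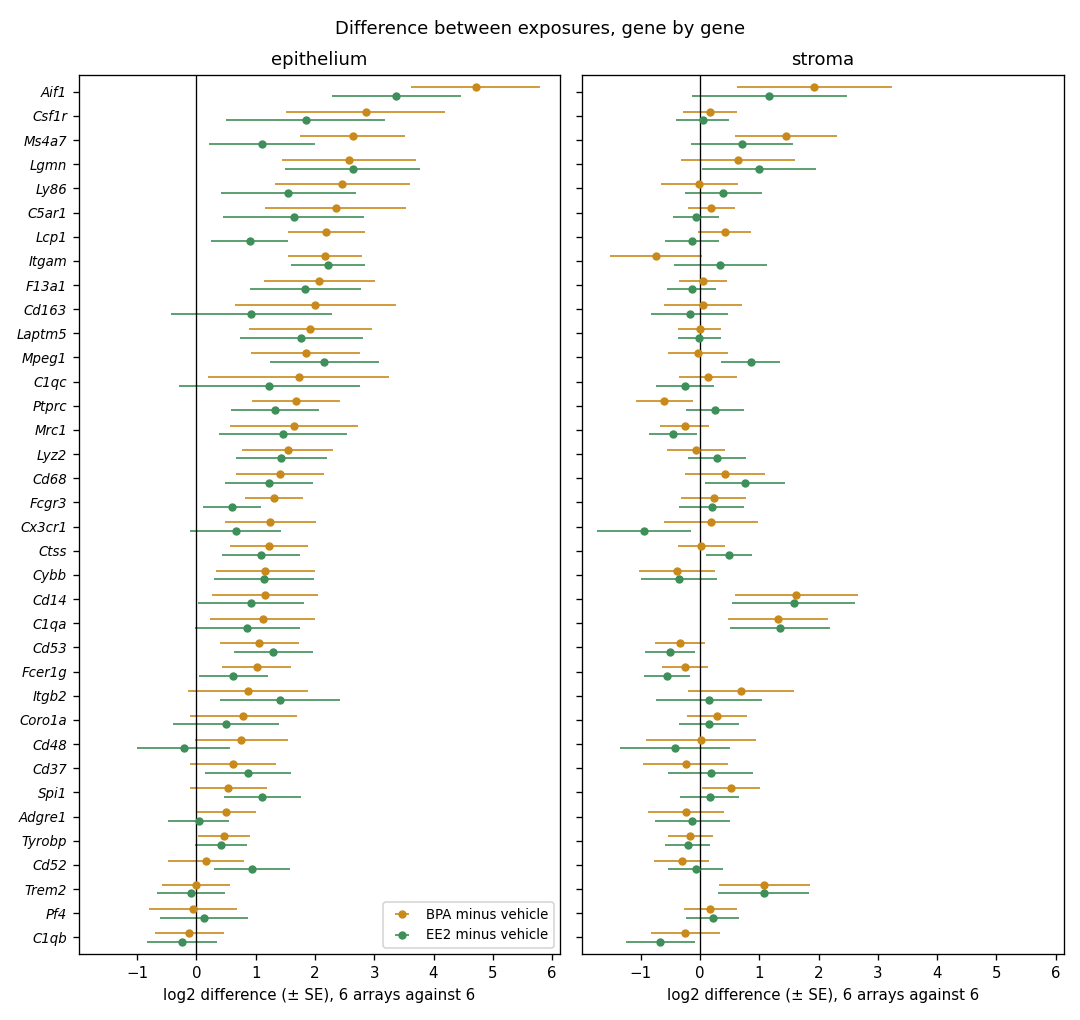
Log2 difference from vehicle (points, with SE bars, 6 arrays against 6) for BPA and EE2 in the epithelium (left) and the stroma (right), with the 36 genes in the order of the BPA difference in the epithelium. Most points of the left panel lie right of 0, with medians of 1.28 and 1.11, those of the right panel scatter around 0, and no gene passed an adjusted p of 0.05.

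In the stroma, 0 members passed the threshold for either exposure. For BPA 0 members were called after adjustment (0% of all genes) and 0 at an unadjusted p under 0.05, where 4.01% of all genes were called, and the median difference was 0.05. The smallest p-values belonged to Ms4a7 (1.45, SE 0.86) and Cd14 (1.63, SE 1.03), both with an adjusted p of 0.993 in limma. On the log2(value + 16) scale the difference of Cd14 was 0.32. Ms4a7 ran from 3.5 to 420.4 in vehicle stroma and from 41 to 192.3 in BPA stroma, inside the vehicle range. For EE2 the counts were again 0 and 0 (0% and 4.09% of all genes), with a median of 0.15. Mpeg1 ran from 45.6 to 510 in vehicle and from 163.6 to 284.3 in EE2 stroma, a difference of 0.85 (SE 0.50, adjusted p = 0.996), and C1qa differed by 1.35 (SE 0.84). BPA against EE2 gave 0 and 0 (0% and 2.91% of all genes), with Ptprc at −0.86 (SE 0.48) and Mpeg1 at −0.89 (SE 0.50). Csf1r ran from 1104.4 to 4293.5 in vehicle, 1821.5 to 4959.1 in BPA and 1507.8 to 4292.3 in EE2 stroma, ranges that largely coincide.

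Between ERα(−/−) and ERα(+/+) fetuses, 0 members passed the threshold. In the stroma 0 members were called after adjustment (0.0055% of all genes, 1 gene) and 0 at the unadjusted threshold (3.23%), with a median of −0.04. Itgb2 (0.90, SE 0.73) and Adgre1 (−0.58, SE 0.52) had the smallest p-values, each with an adjusted p of 1 in limma. In the epithelium 0 members were called after adjustment (0%) and 2 were higher at the unadjusted threshold, where 6.86% of all genes were called. They were Aif1 (2.45, SE 0.89, adjusted p = 0.567) and Cd14 (1.72, SE 0.73, adjusted p = 0.59). Aif1 ran from 0.5 to 103.1 in ERα(+/+) and from 1.8 to 309 in ERα(−/−) epithelium. On the log2(value + 16) scale their differences were 1.19 and 0.24. For the alternative fits that follow, the share of all genes is not given. The count of 2 was 1 after quantile normalization and 4 without the ERα(+/+) vehicle replicate 3. It was 1 without the ERα(+/+) vehicle replicate 2, the ERα(+/+) EE2 replicate 3, the ERα(−/−) BPA replicate 1 or 3 or the ERα(−/−) EE2 replicate 1 or 2, and 2 or 3 without any other array.

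Within a genotype, 3 arrays against 3, no member passed after adjustment, and 0% of all genes did in each comparison. In ERα(+/+) stroma BPA gave 2 members at the unadjusted threshold (3.62% of all genes), Ptprc (−1.57, SE 0.68) and Cd163 (−2.01, SE 0.92). In ERα(−/−) stroma it gave 2 (3.97%), Aif1 (5.29, SE 1.85) and Cd163 (2.11, SE 0.92). Cd163 thus stood on opposite sides of vehicle in the genotypes: it read 544.4, 1524.2 and 702.2 in ERα(+/+) vehicle stroma, 640, 196.5 and 71.1 with BPA, 314.3, 224.5 and 106.5 in ERα(−/−) vehicle stroma and 562.7, 1328.2 and 809.2 with BPA. The ERα(−/−) groups did not overlap and the ERα(+/+) groups did, and the interaction had an adjusted p of 1 in limma (4.12, SE 1.30). At the unadjusted threshold 2 members passed this BPA interaction in the stroma, where 3.29% of all genes did. Cd163 was singled out after these values were seen. Neither its opposite directions nor the lack of overlap was set against all genes. EE2 gave 1 member in ERα(+/+) stroma (3.9% of all genes), Fcer1g (−1.19, SE 0.55), and 0 in ERα(−/−) stroma (3.68%). In the epithelium BPA gave 2 members in ERα(+/+) fetuses (7.74% of all genes), Itgam (3.33) and Aif1 (5.46), and 7 in ERα(−/−) fetuses (9.48%), Lcp1, Aif1, Lgmn, Ms4a7, Ly86, F13a1 and Lyz2, at 2.33 to 3.96. EE2 gave 1 (5.45%), Itgam (3.37), and 2 (6.92%), Aif1 (3.61) and Cd68 (2.26). No interaction of exposure and genotype passed adjustment for any member in either compartment, and 0% of all genes passed in each.

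Among genes outside the members, those whose signal most resembled the members' mean over the 18 stroma arrays were sought. On values relative to the array median, the closest were Ptprs (Pearson's r of 0.90), Tug1 (0.88) and Kdelr2 (0.84), followed by Ywhah, Ppig, Zbtb14, Ss18, Ssr2, Pafah1b2 and Ino80. Of these, Ptprs, Tug1 and Ss18 differed between the compartments and were the higher in the epithelium, at −0.74, −0.50 and −0.79 on the stroma-minus-epithelium log2 scale. After quantile normalization the closest were Cbln4 (0.75), Atp6v1e2 (0.73) and Mid2 (0.73), and none of the first 10 remained in the list, which held dim genes such as Tm4sf5 (median signal 3.75) and an immunoglobulin gene, Igkv9-120 (0.68). The closest genes thus depended on the scaling.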

How the data were processed

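RNA of 36 laser-captured samples was amplified, labelled and hybridised to Affymetrix Mouse Genome 430 2.0 arrays. The authors' methods describe robust multi-array averaging in Partek and logs, but the deposited intensity values are linear, per the labels GCOS output, with 39 values of 0. How they were scaled is not given in the sources used here. Precision is limited by having 3 arrays a group. Of the probe sets, 34958 carried 1 symbol in the platform annotation, 932 several and 9211 none.

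Values under 0.1 were set to 0.1 before log2. limma 3.58.1, with statmod 1.5.0, fitted the models under R 4.3.3, the compartments with the gland as a fixed block and the exposures and genotypes over the 6 groups of a compartment, and adjusted p-values took in every probe set (Benjamini-Hochberg). Fits were tested on simulated data. Counts over all genes used 1 probe set a gene. Both compartments came from the same gland, but that equal replicate numbers mark one gland was inferred. Deviations of same-numbered arrays correlated above 0.1 in 7 of 18 pairs (mean 0.0774, against −0.0384 for other pairs). Litters and dams were not modelled.

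The members and lists were chosen with earlier results of these data known. Of each list, the genes named were all members, by role, then the members with an adjusted p under 0.05 or else the 2 smallest p-values in each pooled comparison, the largest and smallest differences of other lists, and the 10 genes most correlated with the members' mean. Values that describe single arrays were chosen after they were seen. Promoters came from RefSeq (GRCm38.p6). The alternatives tried were quantile normalization, centring, an offset of 16, brighter probe sets, array weights, a trended variance, the mean of a gene's probe sets, the replicate block, the compared groups alone, leaving out each array or gland, and the methods' t-test. Leaving out the 3 dimmest arrays was added after seeing the data.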

Additional observations from a re-analysis of the deposited data

Results flagged for a closer look

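Within each compartment and exposure, the highest or lowest of the 6 arrays was set against the others for the 36 genes and their mean, 222 groups in all. In 29 (13.1%) that array stood apart by Dixon's criterion on the log2 scale, where chance gives about 1 in 20, and the groups share arrays.

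The arrays that stood apart most often were the ERα(+/+) BPA replicates 3. In the stroma that array, the third dimmest, was lowest for Laptm5 (3710.5), Fcgr3 (112.5), Lyz2 (278.5), Itgam (0.6) and Lgmn (0.7), and highest for C1qb (11975.3). In the epithelium it was lowest for C1qc (22), Ly86 (10.6), Coro1a (21.8), Spi1 (3.2), Mpeg1 (2) and Lgmn (0.8). The ERα(+/+) vehicle replicates 2, the dimmest of their compartments, were lowest in the epithelium for Csf1r (1), Laptm5 (6.4) and C5ar1 (0.9), and in the stroma lowest for Cd53 (870.4) and Itgb2 (2.2) and highest for Adgre1 (645).

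The other flagged values in the stroma were Cd14 on the ERα(+/+) vehicle replicate 3 (15.9), Csf1r on the ERα(−/−) BPA replicate 1 (4959.1), C5ar1 on the ERα(−/−) BPA replicate 3 (2835.6), Cd53 on the ERα(+/+) EE2 replicate 3 (3524.2), and Fcgr3 (586.9) and Coro1a (1262.7) on the ERα(+/+) EE2 replicate 1, each the highest of its group. In the epithelium they were Cd37 on the ERα(−/−) vehicle replicate 2 (1.7) and on the ERα(−/−) EE2 replicate 1 (2.7), Csf1r on the ERα(−/−) EE2 replicate 2 (18.3) and C1qc on the ERα(+/+) EE2 replicate 3 (0.7), each the lowest, and C1qb on that last array (3449.5), the highest.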

How the results depend on the processing

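The count of members higher in the stroma was 25 to 32 over all alternatives, among them 32 after quantile normalization and 28 without the 3 dimmest arrays, and 0 members were lower. For these alternatives the share of all genes is not given. With no replicate block it was 25 and with the gland as a random replicate block 29 (gland correlation 0.162); without a block C1qa and Itgb2 lost their calls (adjusted p = 0.064 and 0.083). Itgam turned positive after quantile normalization (0.28) and centring (0.33) and ran from −0.31 to 0.21 when a gland was left out. Cd37 did so at 0.31 and 0.35, at 1.06 as the mean of its probe sets and at 0.027 without the 3 dimmest arrays, and ran from −0.27 to 0.14 when a gland was left out. Itgb2 between genotypes in the stroma stood at −0.0070 without the 3 dimmest arrays. The cause was not tested. The within-compartment counts of adjusted calls were 0 under every limma alternative, the replicate block included. The methods' t-test, joined to a minimum change of 2-fold, called 5 members for BPA and 3 for EE2 in the epithelium, 2 for BPA against EE2, and in the stroma 1 for BPA against EE2. Within a genotype it called, in the epithelium, 1 for BPA in ERα(+/+), 6 for BPA and 2 for EE2 in ERα(−/−), and in the stroma 1 for EE2 in ERα(+/+), 2 for BPA and 1 for EE2 in ERα(−/−). After Benjamini-Hochberg adjustment it called 0 in each. The share of all genes that the t-test called is not given, so its counts are not shown to be particular to the members. In limma 15.8% of all genes for BPA and 8.05% for EE2 were called in the epithelium at an unadjusted p under 0.05. Dim members, such as Cd14, Trem2 and Itgam, and Aif1 in vehicle epithelium, are limited by their signal.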
